A study of Mus musculus with 8 samples.

Results

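miR-204 is a microRNA made from the mouse gene Mir204, whose precursor hairpin gives a guide arm, miR-204-5p (mmu-miR-204-5p on the array), and an opposite arm, miR-204-3p (mmu-miR-204-3p). It was followed here in whole mouse kidney as the 2 entries of that name among the 1881 mouse miRNAs on a single-colour array. Each entry was read with its own probes on all 8 arrays. miR-204-5p was detected on 8 of 8 arrays and miR-204-3p on 0 of 8, detection being the flag that the scanner software sets for each miRNA on each array.

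The study compared kidneys after ischemia-reperfusion injury (IRI), a model of acute kidney injury, with kidneys of sham-operated mice, 4 samples in each group. All were male C57BL/6 mice aged 9 weeks with no transgene or deletion named. In the IRI group the right kidney was removed and the left kidney was clamped for 25 or 45 min and taken 12 or 24 h after its blood supply was restored, whereas sham mice had a midline incision only. The groups thus differ by nephrectomy as well as by clamping, the labels do not give the clamp or harvest time of each IRI sample, and whether every sample came from its own mouse is not stated. The p-values therefore speak only to variation among these 8 samples, which may be technical.

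An miRNA guides the silencing complex to messenger RNAs through its seed, bases 2 to 8 from the 5′ end, and miRNAs with 1 seed share many predicted targets. miR-204-5p is known as an epithelial miRNA, abundant in the retinal pigment epithelium and the choroid plexus and expressed in kidney, and its described targets include the transcription factors Meis2 and Sox4. Its gene overlaps Trpm3, which encodes a cation channel, in the RefSeq gene table (GRCm38.p6). The paralog Mir211 overlaps Trpm1, a related channel gene of melanocytes and retina.

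The mature arms of both genes are shown because the array had to tell them apart; the seed is in capitals (RefSeq, GRCm38.p6, 5′ to 3′, both genes on the plus strand).
miR-204-5p: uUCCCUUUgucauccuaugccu
miR-211-5p: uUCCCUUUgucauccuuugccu
miR-204-3p: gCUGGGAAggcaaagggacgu
miR-211-3p: gCAAGGACagcaaaggggggc
The 5p arms of miR-204 and miR-211 shared the seed UCCCUUU and were identical at 21 of 22 bases. The single difference was A17U, counted from 1 at the 5′ end with the miR-204-5p base first. The seed occurred in 3 of 1679 mature miRNAs of the RefSeq table, the third being miR-7670-3p. The 3p arms had different seeds.

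The Mir204 hairpin, with the 5p arm and then the 3p arm in capitals, shows where both measured strands lie.
Mir204: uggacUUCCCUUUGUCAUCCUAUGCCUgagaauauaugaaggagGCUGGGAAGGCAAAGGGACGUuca

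Each arm of miR-204 was read by a pair of probes, each spotted 15 times per array. The 5p probes are shown with those of the same length for miR-211-5p, because they differ by 1 base, which is in capitals and lies opposite position 17 of the miRNA.
A_54_P2396 (miR-204-5p): aggcaTaggatgacaaaggg
A_54_P1467 (miR-211-5p): aggcaAaggatgacaaaggg
A_54_P2397 (miR-204-5p): aggcaTaggatgacaaagg
A_54_P1466 (miR-211-5p): aggcaAaggatgacaaagg
The longer miR-204-5p probe covered bases 3 to 22 of the miRNA and the shorter bases 4 to 22. The array design places them at chr19:22825103-22825121 and chr19:22825104-22825121 of build mm9. For every probe printed here, the design's interval spans 1 position fewer than the probe has bases, so its ends are uncertain by 1 base. The 3p probes read only the 3′ part of their arm.
A_54_P00004866 (miR-204-3p): acgtccctttgcct
A_54_P00004867 (miR-204-3p): acgtccctttgcctt
They covered bases 8 to 21 and 7 to 21 of miR-204-3p and were placed at chr19:22825147-22825159 and chr19:22825146-22825159 of mm9.

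Each level below depends on how the arrays were scaled. The 75th percentile of signal, over the 317 miRNAs detected on all 8 arrays, was 356 to 456 in sham and 445 to 562 in IRI (log2 difference 0.30, exact permutation test, two-sided, p = 0.0571), so the groups overlapped and the difference was not called. The 2 labelling spike-in RNAs had log2 differences of 0.05 and -0.08 (exact permutation test, two-sided, p = 0.2 and 0.171). All 8 arrays were on 1 slide read in 1 scan, and row 1 of the slide carried the sham group and row 2 the IRI group, so row and group cannot be told apart. A sham array and an IRI array sat in each of 4 columns. Unless stated otherwise, a scaled signal is the signal divided by the array's own 75th percentile and brought back to array intensity units, so it is a level relative to the rest of the array.

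miR-204-5p fell after IRI relative to the other miRNAs of the array, to 0.72 of its sham level, while its signal before scaling overlapped between the groups. The scaled signal was 97.7 in sham replicate 1, 80.5 in replicate 2, 90.1 in replicate 3 and 89.6 in replicate 6. It was 76.6 in IRI replicate 1, 63.2 in replicate 2, 62.1 in replicate 3 and 56.7 in replicate 18. All 4 IRI arrays lay below all 4 sham arrays, with the gap between IRI replicate 1 and sham replicate 2.

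The group means were 89.5 ± 7.05 in sham and 64.7 ± 8.43 in IRI (SD, n = 4). The log2 change was -0.47 ± 0.10 (SE), a fold of 0.72 with a 95% interval of 0.608 to 0.852 (limma, adjusted p = 0.0077). Many other miRNAs moved as well: of 379 miRNAs tested, 48.8% were called (185 miRNAs), 36.7% were called lower (139 miRNAs), 12.1% were called higher (46 miRNAs), and 35.9% had all IRI arrays below all sham arrays. Among the 379 changes the fall of miR-204-5p ranked 58th from the largest fall, and among the 139 called falls 56th. The median change was -0.11 over all tested miRNAs and -0.43 over the called falls. Some tested miRNAs were not detected on all 8 arrays, whereas miR-204-5p was. When only the 317 miRNAs detected on all 8 arrays were tested, 139 were called lower and 31 higher, with a median change of -0.19. In whole tissue, fewer cells of a type and less RNA per cell cannot be told apart.

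Before scaling, miR-204-5p had signals of 99.4, 79.1, 74.5 and 71.2 in sham replicates 1, 2, 3 and 6. The IRI signals were 90.9, 79.3, 64.0 and 56.3 in replicates 1, 2, 3 and 18. The groups overlapped here, and in both groups the array of slide column 1 was brightest and that of column 4 dimmest. The unscaled log2 change was -0.17, with an adjusted p of 0.519 in the same limma fit and a p of 0.4 by exact permutation test (two-sided). Scaling to the labelling spike-ins gave -0.15 (limma, adjusted p = 0.576). The background without scaling was 0.264% called lower (1 miRNA) and 14% called higher (53 miRNAs), and with the spike-ins 0.528% lower and 19% higher. The change of miR-204-5p ranked 59th and 58th from the largest fall under these 2 settings.

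**Figure D1:**
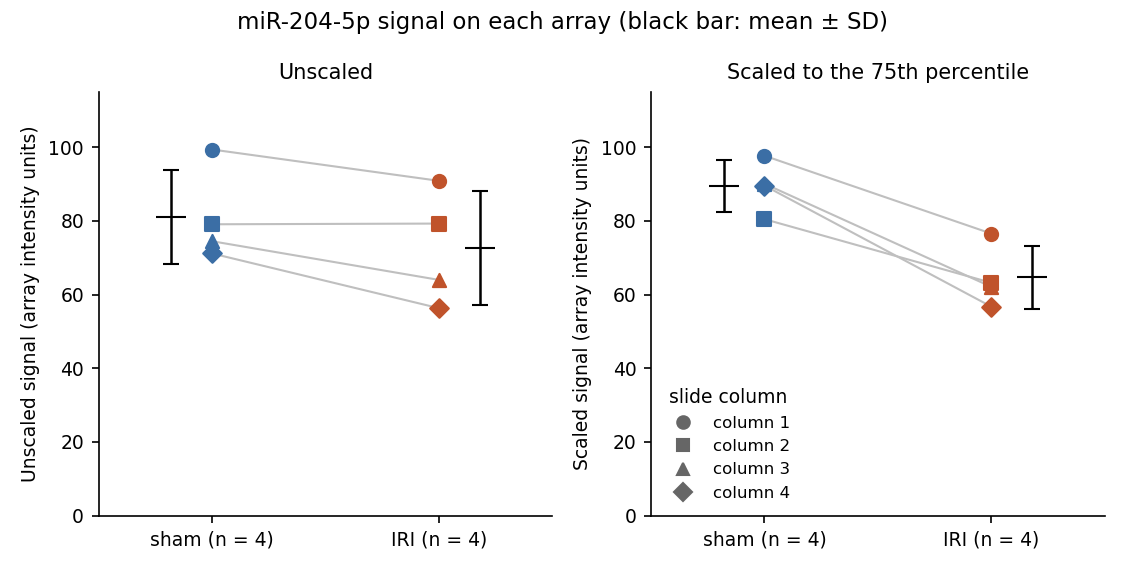
Signal of miR-204-5p on each of the 8 arrays in array intensity units, unscaled on the left and scaled to the array's 75th percentile on the right, with symbols for slide columns, grey lines joining the sham and IRI array of a column, and black bars for the mean ± SD (n = 4). Unscaled signals ran from 56.3 to 99.4 with overlapping groups, whereas after scaling the IRI arrays (56.7 to 76.6) lay below the sham arrays (80.5 to 97.7).

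Within slide columns the scaled signal of miR-204-5p was lower in IRI in 4 of 4 columns, with log2 differences of -0.35, -0.35, -0.54 and -0.66 in columns 1 to 4. The unscaled differences were -0.13, 0.0035, -0.22 and -0.34, so the column 2 pair was nearly equal. In each column the scaling factor itself was higher on the IRI array, by 0.22 to 0.35 on the log2 scale. The scaled difference had a two-sided p of 0.125 when signs were flipped exactly over columns, and 16 flips allow none smaller.

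Both miR-204-5p probes fell in scaled signal, and neither was called without scaling. The longer probe A_54_P2396 had a log2 change of -0.46 and the shorter A_54_P2397 of -0.49, each with an adjusted p of 0.0286 over the 2 probes (exact permutation test, two-sided, the smallest p that the 70 labelings of 4 against 4 arrays allow). The scaled signal of A_54_P2396 was 53.4 to 64.2 in sham and 37.3 to 50.1 in IRI, and that of A_54_P2397 was 27.1 to 33.5 in sham and 19.4 to 26.5 in IRI. Neither probe had overlapping groups after scaling, where 35.9% of tested miRNAs had all IRI arrays below all sham arrays. Both probes read the same strand, so they are not independent measurements. Without scaling the changes were -0.16 and -0.19 (exact permutation test, two-sided, p = 0.4 for each). The difference between their changes, 0.03 on the log2 scale, was not called (exact permutation test, two-sided, p = 0.629).

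The measurement was well supported for the longer probe and less so for the shorter. A_54_P2396 was well above background in 120 of 120 spots and A_54_P2397 in 112 of 120, the lowest counts being 12 of 15 in sham replicate 6 and 10 of 15 in IRI replicate 18. The standard error that the spots give to the scaled signal of miR-204-5p was 1.67 to 2.16 in sham and 1.12 to 1.32 in IRI, below the SD between arrays of either group. All 8 values lay above the floor of 17.3 at which dim signals were set before taking logs.

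miR-204-3p gave no measurable level. It was detected on 0 of 4 sham and 0 of 4 IRI arrays, 0 of 120 spots of either probe were well above background, and its background-subtracted signal was below 0 on every array, at -8.59 to -3.38 scaled units in sham and -6.18 to -4.36 in IRI. Both groups lay below the floor, so no fold is given and it was not among the 379 miRNAs tested. A ratio of the 2 arms could not be formed.

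The paralog miR-211 gave the opposite picture, with an undetected 5p arm and a 3p arm that rose. miR-211-5p, which shares the seed of miR-204-5p, was detected on 0 of 8 arrays, and of its 4 probes only A_54_P1469 had any spot well above background, 1 of 56. miR-7670-3p, the third miRNA with this seed, was likewise detected on 0 of 8 arrays. Of the 3 miRNAs with the seed UCCCUUU, miR-204-5p was therefore the only one with a measured level on these arrays, and probes that differ from its own by the base opposite position 17 read no detected signal.

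miR-211-3p had scaled signals of 76.0, 87.4, 61.8 and 76.9 in sham replicates 1, 2, 3 and 6. It had 388.6, 167.4, 105.6 and 145.4 in IRI replicates 1, 2, 3 and 18. All IRI arrays lay above all sham arrays, where 10.6% of tested miRNAs did so, and IRI replicate 1 was far above the other IRI arrays. The log2 change was 1.25 ± 0.37 (SE), a 2.37-fold rise (limma, adjusted p = 0.0234), and 0.87 without IRI replicate 1 (limma, adjusted p = 0.0080). The call was lost without sham replicate 1 (log2 change 1.25), sham replicate 3 (1.16) or IRI replicate 2 (1.28), with adjusted p of 0.0505, 0.0643 and 0.0509 (limma). It was also lost with the replicate number as a block (1.36, limma, adjusted p = 0.0828), with normexp background correction (0.55, limma, adjusted p = 0.066) and when all 1881 miRNAs were tested (limma, adjusted p = 0.234). The normexp setting also added an offset of 50 units to each spot. Without scaling the change was 1.55 (exact permutation test, two-sided, p = 0.0286).

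The miR-211-3p probes are shown because they are the shortest of those described here and match only the G-rich 3′ end of that arm.
A_54_P00005259 (miR-211-3p): gcccccctttgc
A_54_P00005260 (miR-211-3p): gcccccctttgct
They covered bases 10 to 21 and 9 to 21 of the miRNA and were placed at chr7:71350764-71350774 and chr7:71350763-71350774 of mm9. Both were well above background in 119 of 120 spots. Which RNA they bound cannot be read from the array, and the seed of miR-211-3p lies outside the part that they match.

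**Figure D2:**
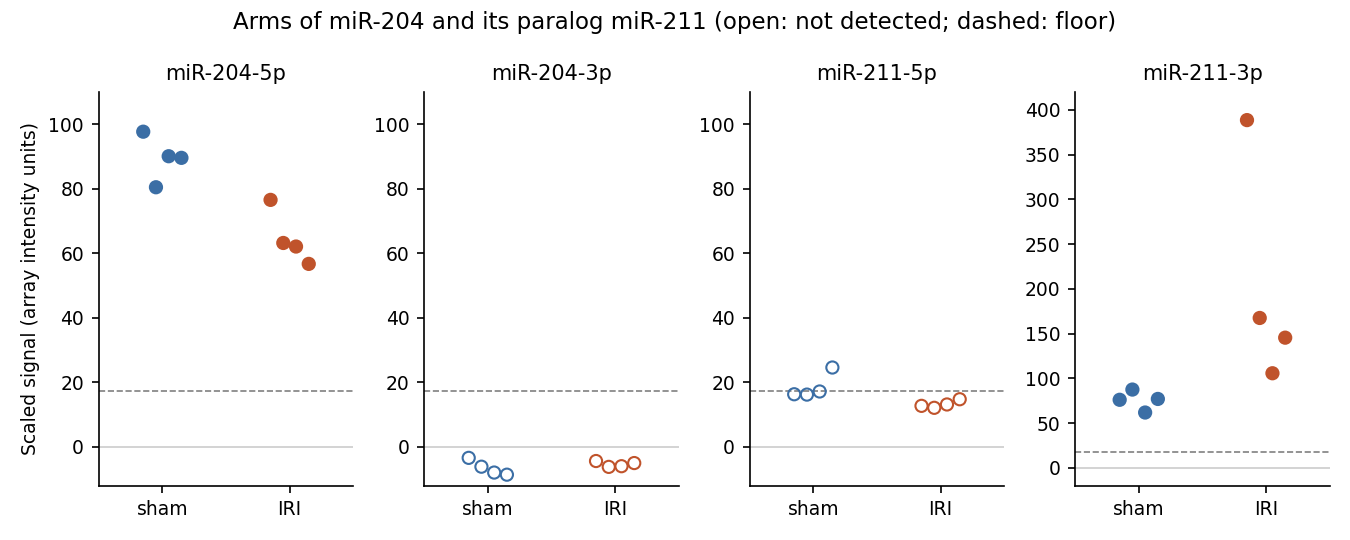
Scaled signal of both arms of miR-204 and miR-211 on 4 sham and 4 IRI arrays, in array intensity units; filled points were detected, open points were not, the dashed line is the floor of 17.3, and the miR-211-3p panel has a longer axis. miR-204-5p was lower in IRI, miR-204-3p and miR-211-5p were detected on no array, and miR-211-3p reached 388.6 in IRI replicate 1.

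miR-204-5p fell together with most other miRNAs of the kidney epithelial list. That list held both arms of miR-192, miR-194 and miR-215, of the miR-30 and miR-200 families and of miR-204 and miR-211, and the list was chosen with earlier results of these data known. Of its 32 entries 22 were tested, of which 17 were called lower and 1 higher, the other 4 passing no threshold. The median change was -0.43 in log2 (limma), where 36.7% of all tested miRNAs were called lower. All 22 tested entries were detected on all 8 arrays. When only the 317 miRNAs detected on all 8 arrays were tested, 139 were called lower, with a median change of -0.19. In that setting 18 epithelial entries were called lower. These counts and this median include miR-204-5p itself. Medians of the other lists given below ran from -0.54 (muscle, 1 tested) to 2.93 (red blood cell). The red blood cell median is the value of miR-144-3p, which, like miR-486a-5p, entered the test through the IRI group, where it was high. That median is therefore no like comparison for the epithelial list. The muscle value is that of miR-1a-3p, whose signal in IRI was close to the floor. They were -0.41 for the fibroblast and mural list and -0.35 for the endothelial list. The one called higher was miR-211-3p. Of the entries, 9 were detected on no array, among them miR-215-5p and miR-204-3p. Without scaling 1 entry was called lower and 1 higher.

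By family, 3 of 3 tested arms of miR-192 and miR-194, which are abundant in proximal tubule, were called lower, with changes of -1.03 to -0.69. The share called lower over all tested miRNAs was 36.7%. When only the 317 miRNAs detected on all 8 arrays were tested, 139 were called lower. Of the miR-30 family, present along the nephron, 8 of 10 tested arms were lower, with changes of -0.57 to -0.24. Of the miR-200 family, which maintains the epithelial state by repressing Zeb1 and Zeb2, 5 of 7 tested arms were lower, with changes of -0.50 to 0.10. The miR-204-5p change of -0.47 lay within the range of the miR-30 and miR-200 families and outside that of miR-192 and miR-194.

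**Figure D3:**
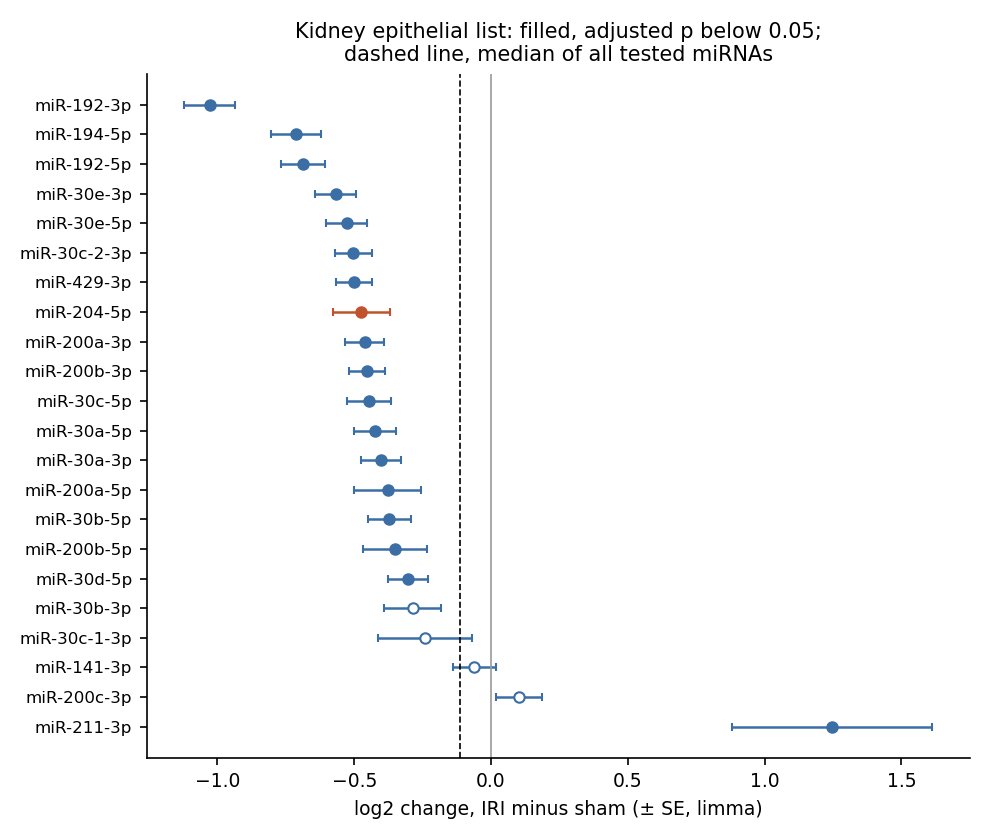
Log2 change of IRI against sham, in scaled signal, for the 22 tested entries of the kidney epithelial list, with SE bars from limma; miR-204-5p is in orange, filled points had an adjusted p below 0.05, and the dashed line is the median of all 379 tested miRNAs (-0.11). The changes ran from -1.03 for miR-192-3p to 1.25 for miR-211-3p. The median over the 317 miRNAs detected on all 8 arrays, as these entries were, was -0.19.

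These differences were tested within arrays, where scaling by 1 factor per array cancels. On each array the mean log2 signal of a family's members detected on all 8 arrays was subtracted from that of miR-204-5p, and the groups were compared by exact permutation test (two-sided, adjusted over 3 families). miR-204-5p fell less than the miR-192 and miR-194 arms by 0.34 on the log2 scale (3 members; p = 0.0286 by exact permutation test; exact 97.1% interval 0.18 to 0.52). The groups did not overlap, and the difference had the same direction in 4 of 4 slide columns. The adjusted p was 0.0857, which is above the threshold and is the smallest that 1 separated family among 3 can reach, so this difference is not called. Its size also moved with the processing, to 0.22 with normexp background correction, 0.15 with quantile normalization and 0.088 with the floor doubled (exact permutation test, adjusted p = 0.0857, 0.114 and 0.386). Among the 3 members, miR-192-3p changed most (-1.03), and its mean log2 signal in IRI, 4.37, was close to the floor (4.11 in log2). The changes of miR-192-5p and miR-194-5p were -0.69 and -0.71, and a difference from these arms alone was not tested.

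Against the miR-30 family the difference was -0.07 (10 members; exact permutation p = 0.486, adjusted 0.486; exact 97.1% interval -0.31 to 0.21). Against the miR-200 family it was -0.17 (7 members; exact permutation p = 0.2, adjusted 0.3; exact 97.1% interval -0.56 to 0.15). The groups overlapped in both and neither difference was called, while the intervals allow differences as low as -0.31 and -0.56. Within slide columns the miR-200 difference was below 0 in 4 of 4 columns, from -0.56 to -0.01 (exact sign-flip p = 0.125), and the miR-30 difference in 2 of 4. Both sizes moved with the processing. The miR-30 difference was 0.0213 with normexp background correction, -0.25 with quantile normalization, -0.13 without IRI replicate 1 and -0.0078 without IRI replicate 18. The miR-200 difference was -0.06 with normexp, -0.32 with quantile normalization and -0.07 without IRI replicate 18. The normexp setting added 50 units to each spot, and the miR-204-5p change itself was -0.30 there. Whether the correction or the added units moved these values was not tested. As a description, with members divided by locus after their values were seen, miR-204-5p differed by -0.04 from the miR-200a, miR-200b and miR-429 arms and by -0.49 from the miR-200c-3p and miR-141-3p arms.

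**Figure D4:**
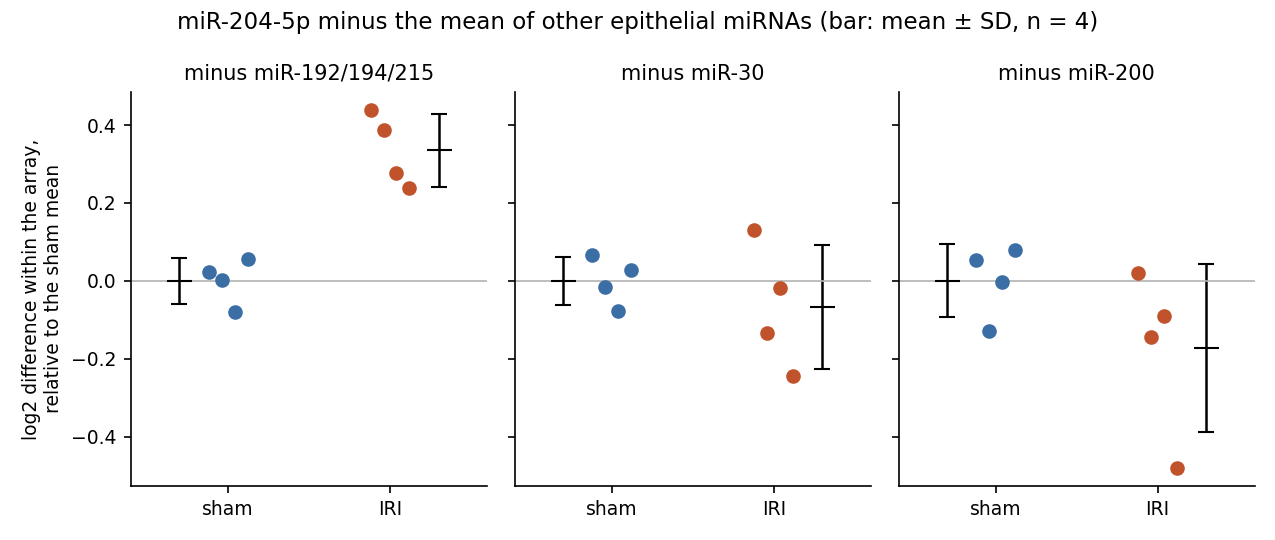
Difference on each array between the log2 signal of miR-204-5p and the mean log2 signal of the miR-192, miR-194 and miR-215 list, the miR-30 list or the miR-200 list, set to 0 at the sham mean; black bars are the mean ± SD (n = 4). The IRI arrays lay above the sham arrays for the first list, with a mean difference of 0.34, and overlapped them for the other lists.

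The miRNAs whose scaled log2 signal followed miR-204-5p most closely over the 8 arrays were miR-425-5p, miR-340-5p, miR-16-5p, miR-324-5p and miR-26a-5p, with Pearson r of 0.979 to 0.987 and Spearman rho of 0.976 to 1. The 8 points fall into the 2 groups and share each array's scaling factor, and 88 of the 316 miRNAs compared had an r above 0.9. After the group means were subtracted, the closest were miR-324-5p (r = 0.980), miR-425-5p (0.978), miR-98-5p (0.944), miR-28c (0.935) and miR-194-5p (0.927), where the median r was 0.38 and 19 miRNAs lay above 0.9. miR-425-5p and miR-324-5p were in both sets of 5. These 8 miRNAs had log2 changes of -0.71 (miR-194-5p) to -0.36 (miR-340-5p). For the 5 chosen over all 8 arrays, likeness to miR-204-5p over both groups largely fixes this direction. The ranking with group means subtracted does not use the group difference, but it still shares each array's scaling factor. Within the epithelial list, r after subtracting group means ran from -0.49 (miR-30c-2-3p) to 0.93 (miR-194-5p). For the first-listed miR-192, miR-30 and miR-200 members it was 0.79 (miR-192-5p), 0.69 (miR-30a-5p) and 0.66 (miR-200a-3p). It was below 0 for miR-30c-2-3p (-0.49), miR-141-3p (-0.31), miR-200c-3p (-0.28) and miR-30c-1-3p (-0.25), and above 0 for all other entries compared.

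Markers of other cell types are given beside these values, and their part in the miR-204-5p change was not tested. Over all tested miRNAs 36.7% were called lower and 12.1% higher. When only the 317 miRNAs detected on all 8 arrays were tested, 139 were called lower and 31 higher. The summed scaled signal of 4 red blood cell miRNAs was 43.0 to 904 in sham and 2948 to 4100 in IRI, and miR-451a, a product of maturing red cells that was detected on all 8 arrays, had a log2 change of 3.53 (limma, adjusted p = 0.0106). The other 2 tested members were also called higher, but miR-144-3p was detected on 2 of 4 sham arrays and miR-486a-5p on 0 of 4, so they entered the test through the IRI group, where they were high. That of 6 leukocyte miRNAs was 622 to 782 in sham and 814 to 1173 in IRI, with 1 of 6 called higher, miR-223-3p of myeloid cells (log2 change 1.53; limma, adjusted p = 0.00049). The 5 others, not called, ranged from -0.57 (miR-150-5p) to 0.29 (miR-142a-3p). The endothelial list, both arms of miR-126a, had 4623 to 5333 in sham and 3836 to 4321 in IRI, with 2 of 2 called lower. Of 6 fibroblast and mural miRNAs 3 were called lower, with sums of 2107 to 2352 in sham and 1272 to 1988 in IRI.

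Of the retina and sensory list, kept because miR-204 is an eye miRNA, miR-96-5p and miR-9-5p were detected on all 8 arrays, with changes of -0.12 and 0.13 that were not called (limma, adjusted p = 0.587 and 0.482). miR-182-5p was detected on 1 sham and 2 IRI arrays, and miR-183-5p and miR-124-3p on 0 of 8. The list's sums were 84.3 to 107 in sham and 64.1 to 108 in IRI. The muscle list had sums of 29.8 to 43.1 in sham and 19.9 to 31.5 in IRI. Its 1 tested member, miR-1a-3p, was called lower, and miR-133a-3p and miR-206-3p were detected on 0 arrays. The mean log2 signal of miR-1a-3p in IRI, 4.18, was close to the floor (4.11 in log2), so the size of its change is uncertain. The liver marker miR-122-5p was detected on 0 sham arrays and 1 IRI array and was not tested; its sums were 0 to 0.31 in sham and 0 to 33.5 in IRI. The epithelial list, which defines the tissue label, had sums of 36506 to 41437 in sham and 26745 to 31003 in IRI.

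The change of miR-204-5p kept its direction under every setting tried, though changes of filter, floor or test alone could not move it. Its call depended on how arrays were scaled. The call was also lost with the replicate block (limma, adjusted p = 0.0523) and when all 1881 miRNAs were tested (limma, adjusted p = 0.0655). The log2 change ran from -0.58 with the percentile taken over all miRNAs to -0.15 with the spike-ins. It was -0.53 in the authors' deposited table, which the same limma fit called (adjusted p = 0.0078). Leaving out 1 array at a time gave -0.56 to -0.41 with adjusted p of 0.0019 to 0.025 (limma).

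**Figure D5:**
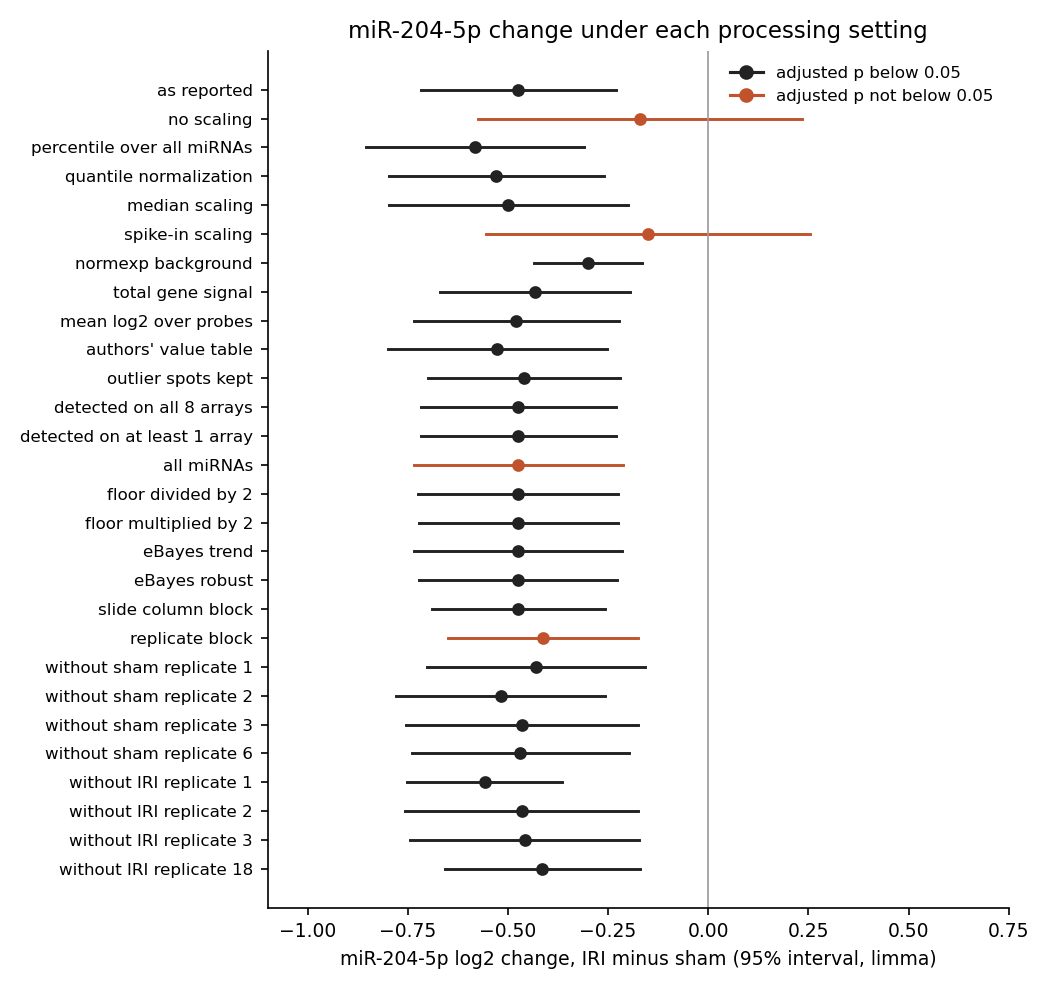
Log2 change of miR-204-5p, IRI minus sham, with its 95% interval from limma under each processing setting; orange marks settings with an adjusted p not below 0.05. The 28 estimates ran from -0.58 to -0.15, and those without scaling (-0.17) and with the spike-ins (-0.15) had intervals that include 0. The settings with all miRNAs tested and with the replicate block are also orange, with intervals below 0.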

How the data were processed

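Total RNA from 30 mg of kidney, 100 ng per array, was labelled with Cy3, per the labels' protocols. Per the file headers, each deposited scanner file gives linear, background-subtracted intensity values per spot, not normalized between arrays; the submitters' processing notes name Agilent Feature Extraction, version 12.0.3.1. Flags for detection come from the same deposited files. A linear ratio for each miRNA makes up the authors' deposited table; its scaling and centring are not given in the sources used here, and it served as an alternative.

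Spots marked as outliers were left out, processed signals averaged over spots and summed over probes, divided by the array's 75th percentile over 317 miRNAs detected on all arrays, and taken to log2 after values under 17.3 (5th percentile of detected signals) were set to 17.3. A miRNA was tested if every array in either group detected it (379 miRNAs). Tests used limma (version 3.58.1, R 4.3.3) with moderated variances from eBayes; p-values are two-sided, adjusted by the Benjamini-Hochberg method and called below 0.05. The limma fit was tried on simulated normal values. That simulation did not cover the scaling, the floor or the summing of probes. The number of arrays limits the precision. Members, lists and tests were chosen with earlier results of these data known. Named miRNAs are both arms of miR-204 and miR-211, the 5 closest to miR-204-5p by Pearson r in either ranking, and up to 3 first-listed members of a list. miR-200c-3p, miR-141-3p, miR-30c-1-3p, miR-30c-2-3p, miR-7670-3p and members of the other cell-type lists beyond the first 3 were chosen after their values were seen, as were the exact tests of miR-204-5p and the split of the miR-200 family. Alternatives covered scaling, background correction, filters, floor, blocks and left-out arrays. The normexp background correction used an offset of 50 units added to each spot. Sequences are from RefSeq, where 4 of 4 arms matched, and probes from the scanner files.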

Additional observations from a re-analysis of the deposited data

Results flagged for a closer look

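In the sham group, replicate 2 lay apart from the other sham arrays in the summed signal of the endothelial list, both arms of miR-126a: its log2 summed scaled signal was 12.17 where the others were 12.36 to 12.38. It was the 1 sample so far from its group among 38 sets of 4 arrays examined, and chance marks about 1 in 20. No miR-204 or miR-211 signal met that criterion in either group.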

How the results depend on the processing

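miR-204-5p kept its direction in all 30 alternatives and its call in 25. Changes of filter, floor, eBayes option, slide column block or test alone left the estimate at -0.47, so they could not alter the direction. Only the settings that changed signal, scaling or the arrays used could do so. The call ended without scaling (-0.17), with the spike-ins (-0.15) and with the replicate block. It also ended when all miRNAs were tested (-0.47, limma adjusted p = 0.0655, with 1881 instead of 379 tests). The exact sign-flip test within slide columns (-0.47) gave no call either, but its smallest possible p is 0.125, so it could give none. The replicate block on the shared numbers 1 to 3, with 6 arrays, gave -0.41 (limma adjusted p = 0.0523), 67 calls in all (17 higher, 50 lower) and 11 epithelial entries lower. Whether equal numbers pair the samples is not stated. Deviations of equal numbers correlated at -0.16, -0.20 and 0.24, and only number 3 correlated best with its own. The highest correlation, 0.50, was between sham replicate 6 and IRI replicate 18, which have unlike numbers and shared slide column 4. Equal numbers also shared a slide column, and with 4 samples in each group these correlations cannot settle the pairing. The total of 185 calls became 54 without scaling, 74 with the spike-ins and 111 with all miRNAs; the 17 epithelial falls became 1 without scaling and 1 with the spike-ins. Against the percentile scaling, the median of all tested miRNAs moved from -0.11 to 0.17 without scaling and 0.19 with the spike-ins. The probes A_54_P2396 and A_54_P2397 gave -0.16 and -0.19 without scaling (exact permutation p = 0.4 for each). Leaving out 1 array at a time gave 153 to 190 calls, 15 to 19 epithelial falls, probe changes of -0.54 to -0.40 and -0.59 to -0.44 (adjusted exact permutation p 0.0286 to 0.0571, the latter without any 1 sham array), and differences of 0.30 to 0.37 from the miR-192 and miR-194 arms, -0.13 to -0.0078 from miR-30 and -0.24 to -0.07 from miR-200. The miR-30 difference turned to 0.0213 with normexp background correction, and the miR-200 difference was -0.49 for the miR-200c-3p and miR-141-3p arms alone. Quantile normalization moved the 3 family differences to 0.15, -0.25 and -0.32. The causes were not tested.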
